A study of Mus musculus with 6 samples.

Results

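The angiopoietin and Tie receptor genes are the ligands Angpt1, Angpt2 and Angpt4, the receptors Tek and Tie1, and Ptprb, the gene of the endothelial phosphatase VE-PTP. They were taken by symbol as 6 of the 53735 genes of a table of normalized counts, in which reads are divided by a size factor of each library. All 6 passed the filter on low values, which kept the 15229 genes whose mean over the libraries reached 10 normalized counts. The cells were lung endothelial cells of Zmpste24 knockout mice and of Zmpste24 wild type mice, with 4 knockout and 2 wild type libraries of poly(A)-selected RNA. All were untreated, unpassaged primary cultures that had been sorted with CD31 and ICAM2 beads and were confluent on gelatin. The labels speak of 2 cohorts of mice without assigning a library to either, and they do not say whether each library came from its own animal, so a p-value here covers the spread of these libraries, part of which may be technical. The sources used here do not give strain, age, sex or the deleted part of Zmpste24. The series concerns Zmpste24, the protease that completes the processing of prelamin A, in endothelial cells.

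In this pathway, angiopoietin-1, made mainly by mural and other mesenchymal cells and carried in platelets, binds the endothelial receptor Tie2, the product of Tek, and activates it. Angiopoietin-2 is made by endothelial cells, is held with von Willebrand factor in Weibel-Palade bodies and can block or weakly activate Tie2 depending on the context, which loosens or stabilises vessels. Tie1 has no well established ligand of its own and pairs with Tie2, while VE-PTP removes phosphate from Tie2 and from VE-cadherin junctions. Active Tie2 signals through PI3K and AKT, which keep the transcription factor FOXO1 out of the nucleus, and FOXO1 in turn drives Angpt2. In lung, as in other organs, the balance of these proteins influences how leaky the capillaries are.

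Wild type 1 and knockout 1, called here the first library set, stood apart from knockout 2, 3, 4 and wild type 2, the second set, on the first principal component, which held 77.3% of the variance. Each library held 32699024 to 45613685 reads. Zmpste24 itself had 5079, 3764, 3599 and 3720 normalized counts in knockout 1 to 4, against 5503 and 4148 in wild type 1 and 2, so RNA of the gene was present in every library labelled knockout and the groups overlapped. None of the 12 endothelial markers was at 0 in any library, and their summed level was 36245 to 103877 normalized counts in knockout and 53863 to 175561 in wild type. The 8 fibroblast markers summed to 401612 to 463764 in knockout and 411168 to 471069 in wild type, also with none at 0, so the cultures held RNA of genes typical of fibroblasts beside those of endothelium. That sum rests mostly on Col1a1 and Col1a2, and 6 of the 8 markers were lower in both first-set libraries than in all 4 of the second set, as were 32.7% of tested genes. Their mean log2(normalized count + 1) was 11.8 in knockout 1 and 11.4 in wild type 1, and 13.2 to 13.7 in knockout 2 to 4 and 13.2 in wild type 2. Both genotypes also differed between the sets in the 9 macrophage markers, which summed to 1399 in knockout 1 and 1655 in wild type 1, and to 27002 to 43718 in knockout 2 to 4 and 29225 in wild type 2.

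The receptor genes share chromosome 4 with Zmpste24, with Tie1 lying 2.57 Mb and Tek 26.2 Mb from it in GRCm38. The sequences around the RefSeq start of both receptors on GRCm38.p6 are therefore shown. Each runs from 250 bases before to 50 bases after that start. The Tie1 window lies mostly inside the gene as GENCODE M21 places it, at 118471191 to 118490061, with a start further upstream. Capitals mark the core of sites of ETS factors, a family that acts on many endothelial genes. A core GGAA on the gene's strand is printed as GGAA, and a core GGAA on the other strand is printed as TTCC.
Tek, chr4:94739039-94739338, plus strand: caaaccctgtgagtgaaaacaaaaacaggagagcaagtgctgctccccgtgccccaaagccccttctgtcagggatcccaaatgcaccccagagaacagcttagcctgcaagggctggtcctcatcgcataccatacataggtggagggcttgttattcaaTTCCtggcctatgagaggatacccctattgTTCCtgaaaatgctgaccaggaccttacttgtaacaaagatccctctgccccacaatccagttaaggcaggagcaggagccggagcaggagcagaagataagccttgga
Tie1, chr4:118489800-118490099, minus strand: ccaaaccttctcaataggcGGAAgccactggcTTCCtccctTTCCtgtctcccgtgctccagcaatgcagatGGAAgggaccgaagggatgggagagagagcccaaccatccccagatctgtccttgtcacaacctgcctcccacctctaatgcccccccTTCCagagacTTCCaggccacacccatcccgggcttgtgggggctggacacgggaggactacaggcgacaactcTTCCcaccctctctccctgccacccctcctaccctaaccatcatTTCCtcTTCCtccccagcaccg
The Tie1 window held 9 ETS cores and the Tek window 2, and 96.0% of 32851 promoters of this length held at least 1. The Tek window also held 1 match to the letters AGATAA, which GATA factors bind and which 11.2% of promoters held on either strand. Neither window held GTAAACA, known as a FOXO site, or ACGTG, the core of hypoxia response sites, which 3.65% and 19.6% of promoters held on either strand. Both strands were searched, and no matches in these windows overlapped. RefSeq's table matched 3 of the 6 members, these and Angpt4, whose window on chromosome 2 held 5 ETS cores and 1 match to TATAAA, the core promoter element found in 13.6% of promoters.

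Angpt2, which encodes the angiopoietin made by endothelial cells, was the member that separated the genotypes. It had 15504, 9494, 9118 and 8461 normalized counts in knockout 1 to 4, against 21569 and 22699 in wild type 1 and 2. Every knockout library lay below both wild type libraries, and knockout 1 lay nearer to wild type than the other 3 knockout libraries did. This separation in the lower direction was met by 354 of the tested genes, or 2.32%, and by 1 of the 6 members. The mean was 10644 ± 3268 in knockout (SD, n = 4) and 22134 ± 799 in wild type (SD, n = 2). These are bulk cultures, in which fewer cells of a type and less RNA per cell cannot be told apart.

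Within the first set Angpt2 stood in knockout 1 at 71.9% of wild type 1, a log2 difference of −0.48. Within the second set it stood at 41.8%, 40.2% and 37.3% of wild type 2 in knockout 2, 3 and 4, or −1.26, −1.32 and −1.42. The 3 differences of the second set share 1 wild type library and lay close together, and the first set gave a smaller one. All 3 second-set knockout libraries were under 50% of wild type 2 in 80 tested genes, 0.525% of them. The 2 wild type libraries differed in Angpt2 by −0.07, wild type 1 minus wild type 2, although they belong to different sets.

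The model of genotype alone, limma on log2(normalized count + 1) with Benjamini-Hochberg adjustment at 0.05 over all tested genes, called 0.00657% of genes and 0 of the 6 members. Angpt2 differed in it by −1.10 ± 0.26 (log2, SE; unadjusted p = 0.00598, adjusted p = 1.00). The set-adjusted fit, in which the library set is a second term, again called 0.00657% of genes and 0 members in limma, and the difference was −0.99 ± 0.20 (unadjusted p = 0.00313, adjusted p = 0.999). At an unadjusted p under 0.05 each of these fits had 1 member, beside 0.939% of tested genes with genotype alone and 3.51% when set-adjusted. Set-adjusted DESeq2, on the whole reads recovered from the table, gave −1.0 ± 0.23 and called it (adjusted p = 0.00651), where it called 0.328% of genes in either direction and 0.256% in the lower one. Angpt2 was the 1 member called there, and set-adjusted edgeR, with 0.0131% of genes called, called 0 members (−1.0, unadjusted p = 0.00279, adjusted p = 1.00). DESeq2 lost the call without knockout 3 (−0.98, adjusted p = 0.120) and kept it without knockout 2 or knockout 4, and with genotype alone, where it called 0.046% of genes (0.0131% in the lower direction), it did not call Angpt2 (−1.06 ± 0.31, adjusted p = 0.667).

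**Figure D1:**
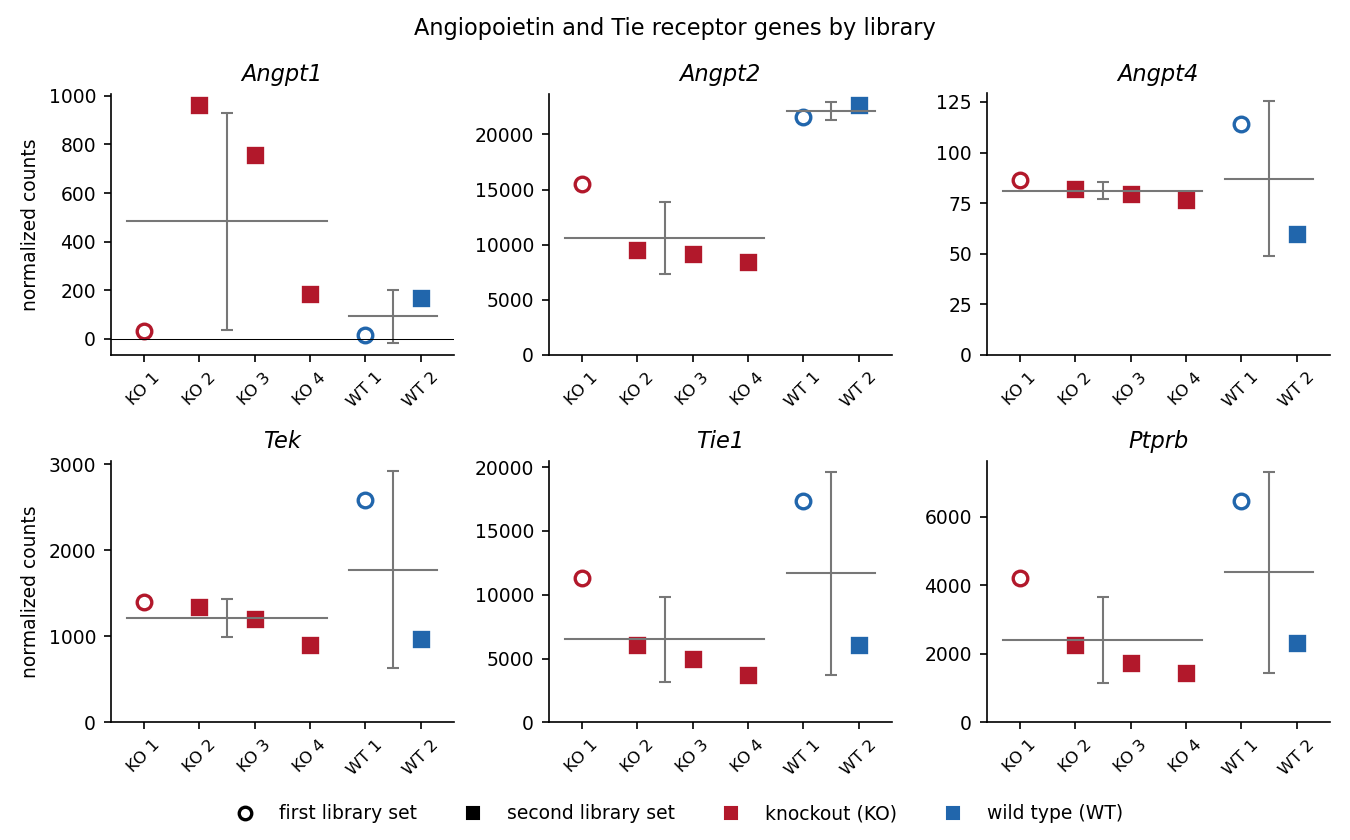
Normalized counts of the 6 members in each library, knockout (KO, red) left of wild type (WT, blue), with open circles for the first library set, filled squares for the second, and horizontal lines and bars for the mean and SD of each genotype (n = 4 and n = 2). Angpt2 is the panel in which the genotypes do not overlap, with 8461 to 15504 in knockout and 21569 to 22699 in wild type.

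In the second set alone, DESeq2 gave Angpt2 a log2 difference of −1.34 ± 0.16 and called it (adjusted p = 2.13e-13), with 0.217% of genes called in all, while limma gave −1.33 ± 0.11 and did not (adjusted p = 0.684), with 0 genes called. The difference between the sets in knockout minus wild type, first minus second, was 0.86 ± 0.17 for Angpt2 in limma (unadjusted p = 0.00694, adjusted p = 0.999). That fit called 0 genes at the adjusted threshold, and DESeq2 called 0.177% of genes, among them 0 members (adjusted p = 0.298 for Angpt2). With 1 wild type library in each set, the spread in these fits comes from knockout 2, 3 and 4. When libraries were scaled to equal endothelial markers, Angpt2 differed by −0.45 ± 0.57 in limma with genotype alone and by −0.63 ± 0.34 in the set-adjusted fit. By construction this scaling moves every gene alike, and it moved the median of all tested genes by 0.65 and 0.36 on the log2 scale.

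Angpt2 lies on chromosome 8 at 18690263 to 18741562 of GRCm38, minus strand, wholly inside Mcph1, a gene of chromosome condensation on the other strand with which it shares 0 bases of exon. Mcph1, named here for its position after its values were seen, had 456 to 705 normalized counts in knockout and 549 and 606 in wild type and differed by −0.06 ± 0.20 in limma. The sources used here do not say whether counting used the strand.

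Markers of lymphatic endothelium, a vessel type in which angiopoietin-2 acts during mouse development, were lower in knockout too. The 7 lymphatic markers summed to 54665, 29146, 25233 and 23983 normalized counts in knockout 1 to 4, against 76205 and 54820 in wild type 1 and 2, with Ccl21a at 0 in all 6 libraries. All 6 tested lymphatic markers were lower, with a set-adjusted median log2 of −0.97, against −0.47 over the 12 endothelial markers and −0.0027 over all tested genes, and set-adjusted DESeq2, with its 0.328% of genes called, called 2 of them, while limma and edgeR called 0 with genotype alone or set-adjusted. Over the tested lymphatic markers the median difference was −0.50 in the first set and −1.11, −1.41 and −1.53 for knockout 2, 3 and 4. The part of these markers in the Angpt2 difference was not tested. Over the 12 endothelial markers the median difference was −0.71 in the first set, where Angpt2 differed by −0.48. For knockout 2, 3 and 4 against wild type 2 it was 0.22, −0.08 and −0.69, where Angpt2 differed by −1.26, −1.32 and −1.42.

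Vwf, the von Willebrand factor gene and the partner of Angpt2 in the Weibel-Palade body, had 2939, 971, 942 and 819 normalized counts in knockout 1 to 4, against 4293 and 1825 in wild type 1 and 2. Knockout 1 lay above wild type 2, so the groups overlapped, and each knockout library lay below the wild type of its set, as for 10.8% of tested genes. Set-adjusted DESeq2 called it (−0.82 ± 0.17, adjusted p = 0.00123), as it did 0.328% of genes, and lost the call without knockout 3 (adjusted p = 0.120), and set-adjusted limma (adjusted p = 0.999) and edgeR (adjusted p = 0.909) did not call it. It was 1 of the 11 Weibel-Palade genes and the 1 called, and their median was −0.14 in both limma and DESeq2 when set-adjusted.

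**Figure D2:**
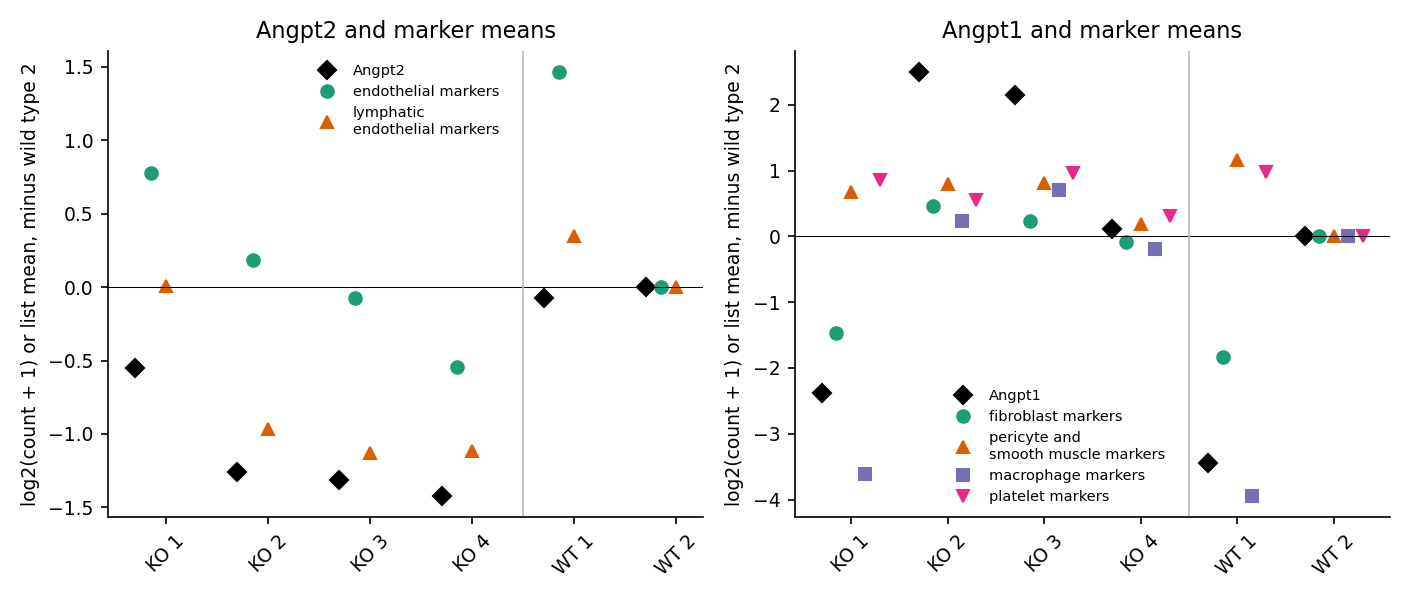
Log2(normalized count + 1) of Angpt2 (left) and Angpt1 (right) minus that of wild type 2, with the mean of the same quantity over the markers of each list, for endothelial and lymphatic markers (left) and fibroblast, pericyte and smooth muscle, macrophage and platelet markers (right), knockout left of wild type. Angpt2 lies below both wild type libraries in all 4 knockout libraries. Angpt1 is lowest in knockout 1 and wild type 1, as are the fibroblast and macrophage means. The pericyte and smooth muscle mean and the platelet mean are instead highest in wild type 1. Both first-set libraries were lower than all 4 of the second set in 32.7% of tested genes.

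Angpt1, the activating ligand of Tie2, differed more between libraries than between genotypes. It had 31.8, 961, 757 and 183 normalized counts in knockout 1 to 4, against 14.7 and 169 in wild type 1 and 2, and rested on as few as 31 reads in knockout 1 and 14 in wild type 1. The libraries of the first set were the lowest of their genotype and knockout 2 and 3 the highest, while knockout 4 lay close to wild type 2, so the groups overlapped. Its mean was 483 ± 446 in knockout (SD, n = 4) and 92.0 ± 109 in wild type (SD, n = 2). Within the sets each knockout library was above its wild type, by a log2 of 1.07 in the first set and by 2.50, 2.15 and 0.11 in the second. The share of tested genes above in all 4 comparisons was not computed, and 10.8% were below in all 4.

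The limma difference of Angpt1 was 2.32 ± 1.63 with genotype alone (adjusted p = 1.00) and 1.38 ± 0.72 in the set-adjusted fit (adjusted p = 0.999), and it was not called. Set-adjusted DESeq2 gave 1.61 ± 0.68 (adjusted p = 0.905). Without knockout 4 that fit called it (1.97, adjusted p = 1.45e-04), among 144 called genes. The difference between the sets, −0.52 ± 1.65 in limma, was smaller than its error.

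Marker genes of cell types known to make angiopoietin-1 stood as follows in the same libraries, with the genes named here chosen after their values were seen. Knockout 2 and 3 lay above the other 4 libraries in Angpt1, as in 17.7% of tested genes, in 4 of the 12 pericyte and smooth muscle markers (Pdgfrb, Rgs5, Kcnj8 and Abcc9) and in 3 of the 8 fibroblast markers (Pdgfra, Tcf21 and Dpt). The same pattern was met by larger shares of other lists, 7 of the 9 macrophage markers and 3 of the 6 lung epithelial markers. It was met by 1 of the 5 platelet markers and by none of the endothelial, lymphatic or mesothelial markers. Rgs5, a pericyte gene, had 60.6, 776, 687 and 158 normalized counts in knockout 1 to 4, against 36.6 and 41.5 in wild type 1 and 2. Unlike Angpt1, it was low in wild type 2 as well, and all 4 knockout libraries lay above both wild type libraries. The groups did not overlap, in either direction, in 4.68% of tested genes. Pdgfra, a fibroblast receptor gene, had 3946, 69228, 58581 and 34289 in knockout 1 to 4, against 5842 and 39694 in wild type 1 and 2, so that it was low in both first-set libraries and highest in knockout 2 and 3, as Angpt1 was. Another 5 of the 12, Cspg4 and the contractile genes Acta2, Myh11, Tagln and Cnn1, were higher in both first-set libraries than in the second set, where Angpt1 was higher, as were 30.7% of tested genes. The summed level of the 12, mostly Acta2 and Tagln, was 69143 to 218093 in knockout and 76643 to 243986 in wild type, and Higd1b was the 1 of them at 0, in knockout 1 and wild type 1. Their median difference within the sets was −0.61 in the first and 0.73, 0.51 and −0.05 for knockout 2, 3 and 4, beside 1.07 and 2.50, 2.15 and 0.11 for Angpt1. Over the 8 fibroblast markers the median difference was 0.48 in the first set and −0.03, −0.02 and −0.03 for knockout 2, 3 and 4. Pdgfra therefore does not stand for that list in the second set. The 5 platelet markers summed to 163 to 863 in knockout and 177 to 387 in wild type, mostly Pf4 in the second set, with Gp9 at 0 in 3 libraries. Of the 9 macrophage markers, given above, Siglecf was at 0 in knockout 4 and wild type 1. The part of these cell types in the Angpt1 values was not tested.

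Over the 6 libraries, the genes nearest to Angpt1 among 12037 candidates were Rarres2, which encodes chemerin, Ednra, the endothelin A receptor gene, and Hsd11b1, which encodes an enzyme that activates glucocorticoids. Likeness was the root mean square difference of the centred log2 values, and it was 0.243, 0.291 and 0.323. Ednra, for example, had 140, 5419, 4054 and 1248 normalized counts in knockout 1 to 4, against 115 and 1287 in wild type 1 and 2, with the same libraries high and low as for Angpt1. Angpt1 lies on chromosome 15 at 42424723 to 42676977 of GRCm38, minus strand, and shares 737 bases of exon with Gm17473, a gene annotated as antisense to it. None of the other 5 members was nearer to Angpt1 than 2.32.

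Angpt4, the third ligand and in mouse an activator of Tie2, was the member with the lowest mean count. It lies on chromosome 2 at 151911210 to 151945337, plus strand. It had 86.3, 82.1, 79.7 and 76.7 normalized counts in knockout 1 to 4, against 114 and 59.9 in wild type 1 and 2. All knockout libraries lay between the 2 wild type libraries. The means were 81.2 ± 4.04 in knockout (SD, n = 4) and 87.0 ± 38.3 in wild type (SD, n = 2), and the limma difference was −0.03 ± 0.31. Its sign depended on the model, since it was 0.08 ± 0.24 in the set-adjusted fit, and within the sets it was −0.40 in the first and 0.45, 0.41 and 0.35 in the second. The difference between the sets was −0.80 ± 0.37 in limma (unadjusted p = 0.0948, adjusted p = 0.999).

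**Figure D3:**
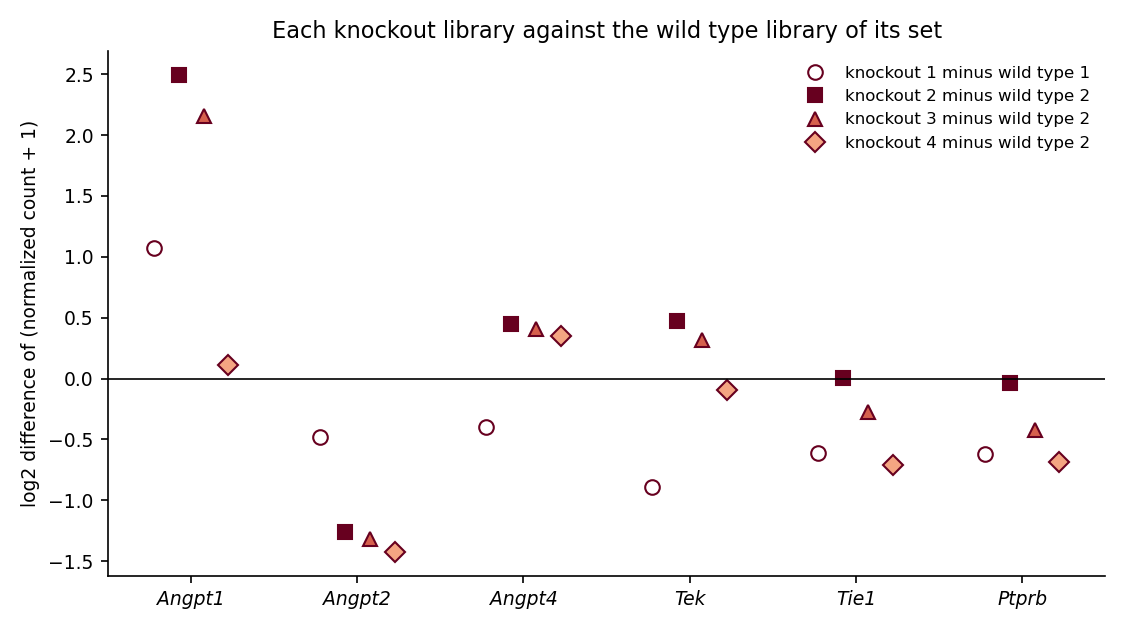
Log2 difference of (normalized count + 1) between each knockout library and the wild type library of its set, for the 6 members, with an open circle for the first set and filled marks for the 3 knockout libraries of the second, which share wild type 2. Angpt2 is below 0 at all 4 marks (−0.48 to −1.42), as were 10.8% of tested genes. Angpt1 is above 0 at all 4 (0.11 to 2.50), a pattern whose share was not computed, while Angpt4 and Tek have marks on both sides.

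Tek, which encodes the signalling receptor Tie2, (chromosome 4, 94739289 to 94874976, plus strand) had 1399, 1344, 1200 and 902 normalized counts in knockout 1 to 4, against 2589 and 965 in wild type 1 and 2. Knockout 1, 2 and 3 lay above wild type 2 and knockout 4 just below it, and all 4 lay below wild type 1. The means were 1211 ± 222 in knockout (SD, n = 4) and 1777 ± 1148 in wild type (SD, n = 2). The limma difference was −0.40 ± 0.41 with genotype alone and −0.22 ± 0.29 in the set-adjusted fit, neither called. Leaving out wild type 1 gave 0.31 and leaving out wild type 2 gave −1.12, so the sign rested on 1 wild type library. With equal endothelial markers it was 0.25 ± 0.59, where the median of all tested genes was 0.65.

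Within the first set Tek differed in knockout 1 by a log2 of −0.89, and within the second set knockout 2, 3 and 4 differed by 0.48, 0.31 and −0.10. The difference between the sets was −1.12 ± 0.40 in limma (unadjusted p = 0.0464, adjusted p = 0.999) and was not called in DESeq2 either (adjusted p = 1.00). For Angpt2 the same quantity had the other sign, 0.86. At an unadjusted p under 0.05, 600 of the tested genes differed between the sets in limma, 2 of the members among them.

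Tie1, the gene of the receptor that pairs with Tie2 (minus strand of chromosome 4, 118471191 to 118490061), had 11312, 6094, 4997 and 3701 normalized counts in knockout 1 to 4, against 17324 and 6061 in wild type 1 and 2. The first set was higher than the second in both genotypes and the groups overlapped. The means were 6526 ± 3337 in knockout (SD, n = 4) and 11693 ± 7964 in wild type (SD, n = 2). The limma difference was −0.78 ± 0.57 with genotype alone and −0.44 ± 0.21 in the set-adjusted fit (unadjusted p = 0.0891, adjusted p = 0.999). Within the sets it was −0.61 in the first and 0.01, −0.28 and −0.71 in the second, and the difference between the sets was −0.29 ± 0.47 in limma.

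Ptprb, the gene of the phosphatase that acts on Tie2 (chromosome 10, 116275523 to 116389535, plus strand), had 4217, 2259, 1729 and 1439 normalized counts in knockout 1 to 4, against 6464 and 2315 in wild type 1 and 2. Its order over the libraries was that of Tie1 in the knockout group, highest in knockout 1 and lowest in knockout 4, and the groups overlapped here too. The means were 2411 ± 1251 in knockout (SD, n = 4) and 4390 ± 2934 in wild type (SD, n = 2). The limma difference was −0.81 ± 0.56 with genotype alone and −0.47 ± 0.19 in the set-adjusted fit (unadjusted p = 0.0543, adjusted p = 0.999). Set-adjusted DESeq2 gave −0.46 ± 0.23, with an unadjusted p = 0.0424 and no call. Leaving out wild type 1 brought the limma difference with genotype alone to −0.07 for Ptprb and −0.02 for Tie1.

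Tek, Tie1 and Ptprb are endothelial genes. The summed endothelial markers had 103877, 60491, 51536 and 36245 normalized counts in knockout 1 to 4, against 175561 and 53863 in wild type 1 and 2. Like the 3 genes, they were highest in wild type 1 and lowest in knockout 4. Both first-set libraries were above all 4 of the second set in these genes, in 10 of the 12 markers and in 30.7% of tested genes. Tek followed the sum less closely, at 1399 and 1344 in knockout 1 and 2. In Tek knockout 3 lay above wild type 2, and in the sum, Tie1 and Ptprb below it. In the set-adjusted limma fit 11 of the 12 markers were lower in knockout, as were 7721 of the 15229 tested genes. In the second set alone 9 of the 12 were lower, with a median log2 of −0.18, as were 7446 of the tested genes. With equal endothelial markers and genotype alone the limma difference was −0.13 ± 0.52 for Tie1 and −0.16 ± 0.55 for Ptprb, where the median of all tested genes was 0.65, and the part of endothelial content in their values was not tested.

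Ptprb and Tie1 stood in nearly one ratio in every library. Ptprb over Tie1, as normalized counts plus 1, was 0.373, 0.371, 0.346 and 0.389 in knockout 1 to 4, against 0.373 and 0.382 in wild type 1 and 2, although each gene alone spanned a wide range. The genotypes differed in this ratio by a log2 of −0.03 (exact permutation test, two-sided, p = 0.667, with 0.133 the smallest p that 4 against 2 libraries allow). Ptprb was the second nearest gene to Tie1 among the candidates (0.0525), after Rasgrp3, which encodes an activator of Ras proteins (0.0432), and before Ccdc88c (0.0751). Leaving out 1 library at a time kept Ptprb among the 5 nearest genes. From Ptprb the nearest were Kbtbd11 (0.0452), Rasgrp3 (0.0514) and Tie1.

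Tek did not keep to that pattern, with a root mean square difference of 0.375 from Tie1 and 0.390 from Ptprb. Tie1 over Tek was 8.08, 4.53, 4.16 and 4.10 in knockout 1 to 4, against 6.69 and 6.27 in wild type 1 and 2. Knockout 1 was highest and the other 3 knockout libraries were below both wild type libraries, and the log2 difference was −0.37 (exact permutation test, two-sided, p = 0.400). The nearest genes to Tek were Cd93, which encodes an endothelial surface lectin (0.0704), St8sia4, a sialyltransferase gene (0.0785), and Sh2b3, an adaptor gene (0.0954).

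**Figure D4:**
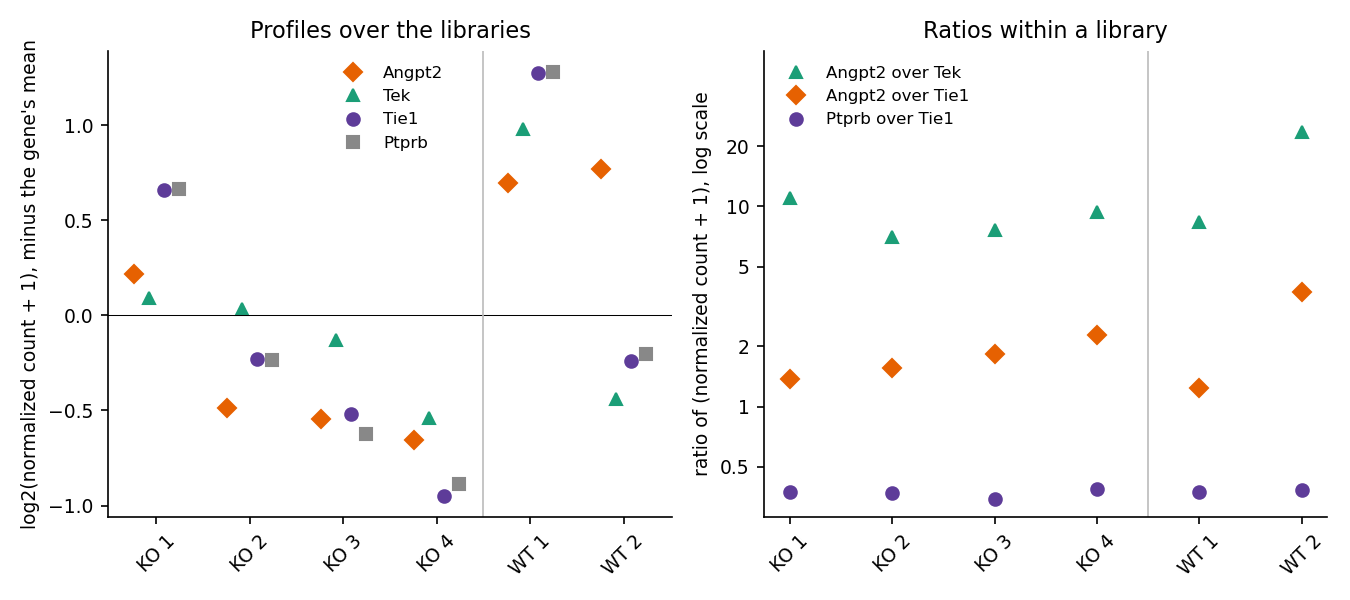
Left, log2(normalized count + 1) of Angpt2, Tek, Tie1 and Ptprb minus each gene's mean over the 6 libraries. Right, ratios within a library on a log axis, where Ptprb over Tie1 stays at 0.346 to 0.389 while Angpt2 over Tek runs from 7.06 to 23.5, with knockout left of wild type in both panels.

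Angpt2 followed neither receptor, at 0.581 from Tek, 0.533 from Tie1 and 0.517 from Ptprb. Angpt2 over Tek, the ligand over its receptor, was 11.1, 7.06, 7.59 and 9.37 in knockout 1 to 4, against 8.33 and 23.5 in wild type 1 and 2. Wild type 2 was the highest, and wild type 1 lay among the knockout libraries. The log2 difference was −0.70 (exact permutation test, two-sided, p = 0.400), and it was 0.41 in the first set and −1.73, −1.63 and −1.33 in the second. Without wild type 2 it turned to 0.052. Angpt2 over Tie1 differed by −0.32 (exact permutation test, two-sided, p = 0.667).

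Angpt2 over Angpt1, the context-dependent ligand over the activating one, was 472, 9.87, 12.0 and 46.1 in knockout 1 to 4, against 1378 and 133 in wild type 1 and 2. Each knockout library lay below the wild type of its set, by a log2 of −1.55 in the first set and −3.75, −3.47 and −1.53 in the second. Knockout 1 lay above wild type 2, so the groups overlapped, and the log2 difference was −3.42 (exact permutation test, two-sided, p = 0.267). Of the 5 ratios computed, 0 could have reached 0.05.

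The genes nearest to Angpt2 were Ccnjl, a cyclin family gene (0.0691), Celsr1, which encodes a cadherin of planar polarity (0.0982), and the olfactory receptor pseudogene Olfr1372-ps1 (0.103). Ccnjl had 112, 70.3, 70.3 and 60.6 normalized counts in knockout 1 to 4, against 161 and 151 in wild type 1 and 2, with knockout 1 between the rest of its group and wild type as for Angpt2. Near Angpt4 were Exd1, E2f6 and Rpl36al, at 0.0844, 0.0871 and 0.0904. These distances describe 6 libraries that fall into 2 sets and carry no test.

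Levels of different genes were compared per length, as normalized counts per kb of merged exons in GENCODE M21. Angpt2 was highest in every library, at 4202, 2573, 2471 and 2293 per kb in knockout 1 to 4, against 5845 and 6152 in wild type 1 and 2. Tie1 came next in every library, at 753 to 2301 in knockout and 1233 to 3523 in wild type. Tek and Ptprb lay close to each other, at 192 to 297 and 108 to 316 in knockout and 205 to 549 and 174 to 485 in wild type, and changed places between libraries. Angpt1 and Angpt4 were the lowest pair except in knockout 2 and 3, where Angpt1 at 185 and 145 lay above Ptprb at 169 and 130, with Angpt4 at 32.9 to 37.0 in knockout and 25.7 to 48.9 in wild type, and Angpt1 at 6.12 to 185 in knockout and 2.82 to 32.5 in wild type. Angpt1 was therefore below Angpt4 in knockout 1 and wild type 1 and above it in the second set.

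By mean normalized count over the 6 libraries, Angpt2 stood at the 97.3 percentile of tested genes and Tie1 at the 94.2, with Ptprb at 80.0, Tek at 61.8, Angpt1 at 35.2 and Angpt4 at 20.7. By the set-adjusted limma difference, 119 tested genes, 0.781%, had a lower value than Angpt2, and 53 genes, 0.348%, a higher one than Angpt1. The values of Ptprb, Tie1 and Tek had 4.68%, 5.35% and 13.8% of tested genes below them, and that of Angpt4 had 72.6%. The median of the 6 members was −0.33, with 4 below 0 and 2 above, against −0.0027 over all tested genes. With genotype alone the median was −0.59, against 0.00.

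**Figure D5:**
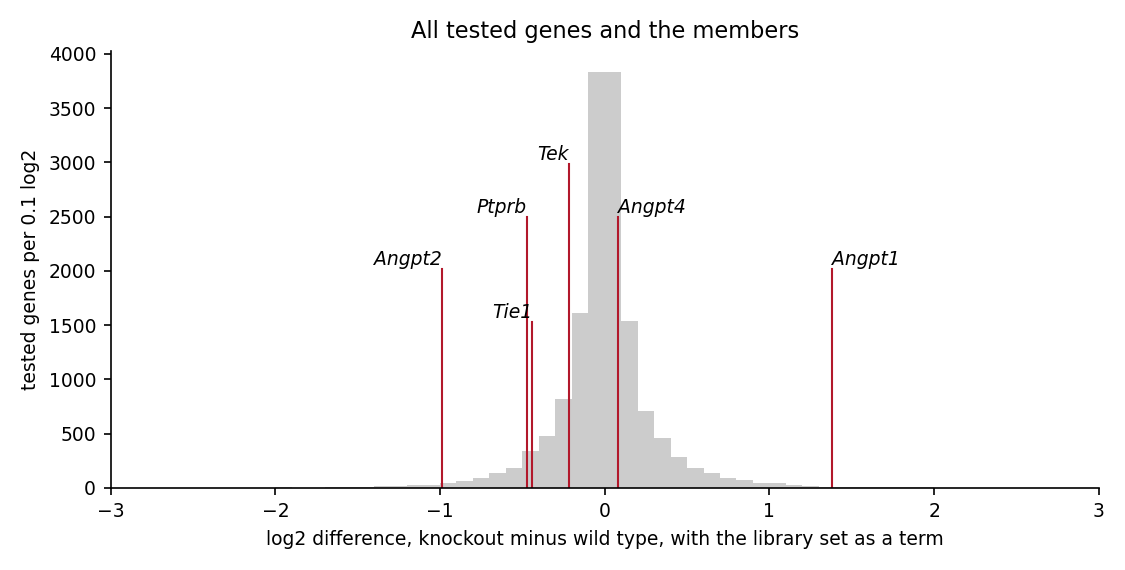
Number of tested genes per 0.1 of log2 difference, knockout minus wild type, in set-adjusted limma, with a red line at each member (the line heights carry no value). Angpt2 at −0.99 and Angpt1 at 1.38 lie in the tails, and 11 genes beyond 3 in either direction are not drawn.

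Beyond the members, the wider pathway held 81 tested genes in 10 lists, of which limma called 0 with genotype alone and 0 when set-adjusted, and set-adjusted DESeq2 called 1, Vwf. At an unadjusted p under 0.05 limma had 3 of them with genotype alone, beside 0.939% of tested genes, and 9 when set-adjusted, beside 3.51%, and their set-adjusted median was −0.02. The 4 tested angiopoietin-like genes, which encode relatives not counted among the ligands of Tie2, had a median of −0.34 with 4 below 0, and the 6 other extracellular partners of Tie receptors, mostly integrins, −0.09 with 4 below 0. The 7 genes of VE-PTP partners and junctions had a median of −0.28 with 6 below 0, and the 3 phosphatases related to Ptprb 0.11 with 3 above 0.

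Downstream of Tie2 the medians lay near 0. They were −0.03 over 10 adaptor genes, 0.05 over 12 genes of PI3K, AKT and FOXO, and 0.00 over 15 FOXO target genes, of which 7 were below 0 and 8 above. The 9 transcription factors reported to act on Angpt2 or Tek had a median of 0.01, and the 4 sheddase genes, whose products cleave or control the cleavage of receptor ectodomains, −0.05. These are RNA levels and do not measure receptor phosphorylation or the amount of secreted ligand.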

How the data were processed

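The deposited table holds normalized counts as a signal per gene and library, which the authors scaled with DESeq2 1.10.1, per the series design text. The submitters' processing notes list Trimmomatic 0.36, STAR 2.6.0c, featureCounts (Subread 1.6.1) and the build GRCm38.p6. In place of these, the design text has Trimmomatic 0.32, STAR 2.4.2a and HTSeq with GENCODE M17, and the sources used here do not say which of them made the table.

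Values were whole multiples of 1 read in all 6 libraries, within a tolerance of 1e-06, for 100% of values. The recovered reads served DESeq2 1.42.0 and edgeR 4.0.16 (quasi-likelihood) as alternatives. R 4.3.3 with limma 3.58.1 gave the main test (lmFit, eBayes with trend, two-sided) on log2(normalized count + 1), which understates the change of low genes, for 15229 genes with a mean of at least 10. Counting error at that mean is 31.6% (coefficient of variation), and counts without molecular identifiers carry further error. Benjamini-Hochberg adjustment ran over all tested genes. The library sets were taken from the sign of the first principal component. Alternatives were pseudocounts of 0.5 and 5, filters, scalings, the title number as a block, the set as a term, the second set alone, and each library left out. The limma fits and the set-adjusted edgeR and DESeq2 fits were also run on simulated counts with the same relative spread for every gene. That run checked the sign and size of differences and does not show how far the calls in these libraries hold.

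Named genes were the members, Zmpste24, genes of the pathway lists called by any tool or the 2 most abundant where none was, and the 3 nearest genes per member with a mean of at least 50. The abundant uncalled genes are given within their lists only. The members and lists were chosen with earlier results of these data known. Libraries of a genotype differed beyond sampling noise, so none was merged.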

Additional observations from a re-analysis of the deposited data

Results flagged for a closer look

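In 4 of the 14 results tested for a library far from the others of its genotype, knockout 1 stood above knockout 2, 3 and 4. The chance rate of about 1 in 20 groups assumes libraries that are alike, which the library sets are not. Both first-set libraries were above all 4 of the second set in 30.7% of tested genes. The share of all tested genes flagged in this way was not computed. Angpt2 had 15504 normalized counts in knockout 1, against 8461 to 9494 in the other 3 knockout libraries. Zmpste24 had 5079 in knockout 1, against 3599 to 3764. Vwf had 2939 in knockout 1, against 819 to 971. The log2 ratio of Tie1 over Tek was 3.01 in knockout 1, against 2.03 to 2.18. Knockout 1 is the one knockout library of the first library set, and wild type 1, the other library of that set, had 21569 normalized counts of Angpt2, 5503 of Zmpste24 and 4293 of Vwf. A single library and its set cannot be told apart.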

How the results depend on the processing

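The number of genes called, 1 in limma with genotype alone, was 2 with a pseudocount of 5, 7 in DESeq2, 0 with the title number as a replicate block, 2 in set-adjusted edgeR, 50 in set-adjusted DESeq2, 0 in the second set alone (33 in DESeq2) and 33 with the set as a term and equal endothelial markers. Leaving out 1 library gave 0 to 2, with the set as a term 0 to 1, and in set-adjusted DESeq2 11 to 144 (41 without knockout 2). The members called, 0 in limma, were 1 in DESeq2 with the set as a term, 1 in DESeq2 on the second set, and 0 to 2 with that term and a library left out in DESeq2; the pathway list genes called were also 1, 1 and 0 to 2. Whether equal numbers in the titles mark paired libraries could not be decided from correlations of the deviations from the group means. With 2 wild type libraries their deviations are mirror images, so knockout 1 correlated at 0.841 with wild type 1 and −0.841 with wild type 2. Wild type 2 correlated at 0.562 with knockout 2 and at 0.668 with knockout 3, all of the second set. Pairing by number and the library sets are therefore not told apart by these values. Under the title number block Angpt2 differed by −0.87 (adjusted p = 0.943 in limma).

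Angpt2 kept its sign in all 27 alternatives, at −1.34 to −0.45, as did Angpt1 at 0.60 to 4.04, Tie1 at −1.54 to −0.02 and Ptprb at −1.55 to −0.07. Equal endothelial markers move every gene alike, and moved the median of all tested genes by 0.65 (0.36 set-adjusted). Values under them are relative to those markers, and sign changes under them include this common shift. Angpt4, at −0.03, was 0.62 with equal endothelial markers, 0.025 with the block, 0.082 in limma, 0.070 in edgeR and 0.058 in DESeq2 when set-adjusted, 0.40 in the second set by limma and 0.40 by DESeq2, and 0.45 with the set as a term and equal markers. Leaving out a library gave it −0.49 to 0.43, and set-adjusted 0.045, 0.057 and 0.073 in limma and 0.031, 0.042 and 0.057 in DESeq2 without knockout 2, 3 or 4. Tek was 0.25 with equal markers, 0.23 in the second set (0.25 in DESeq2) and 0.15 with the set and equal markers, and −1.12 to 0.31 with a library left out. With equal markers Zmpste24 was 0.39 and Mcph1 0.59, and with the set as a term as well 0.22 and 0.23. Mcph1 ran from −0.18 to 0.028 with a library left out. The log2 ratio of Angpt2 over Tek was −1.44 to 0.052 and that of Angpt2 over Angpt1 −5.10 to −1.73 with a library left out. The causes were not tested. Low counts limit Angpt1, with 14 reads in wild type 1, and Angpt4, with 52 to 109 reads per library.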
